A study of Drosophila melanogaster with 2 samples.

Results

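The abd-A region of the bithorax complex on chromosome arm 3R carried 18 of the 2457 Polycomb-like (Pcl) peaks mapped by chromatin immunoprecipitation and sequencing (ChIP-seq) in whole Drosophila melanogaster embryos. Its peaks were chosen by position alone: the centre had to lie from 12632000 up to but not including 12695000 on 3R in build BDGP5, a stretch of 63 kb laid over abd-A and its iab-2, iab-3 and iab-4 regulatory DNA and ending at about the Mcp boundary. The embryos were collected from 0 to 8 h after egg laying and received no treatment. The protocol names the iso1 strain (y; bw cn sp) or transgenic flies; a specific antibody, KW4-Pcl-D2, is listed for the Pcl sample, and input DNA is its control. One list of peaks stands for the ChIP group, whose title names replicates 1, 2 and 3 together, while the design text speaks of 2 replicates for ChIP-seq. The list holds no value per replicate and no read counts. The depth behind each peak is therefore unknown, no replicate error could be computed, and no test between samples was possible. Every comparison below is a description within this one list.

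abd-A encodes a homeodomain transcription factor of the Hox family that gives anterior abdominal segments their identity. The iab-2, iab-3 and iab-4 domains are named for the segments in which they control abd-A, and Mcp is a boundary element between the iab-4 and iab-5 domains. Outside the segments where a Hox gene is active, Polycomb group proteins keep it silent, and they are recruited in flies through Polycomb response elements. Pcl is a PHD-finger partner of PRC2, which places methyl groups on lysine 27 of histone H3. In the RefSeq gene table of Release 6, abd-A (Dmel_CG10325) lies between the other Hox genes of the complex, Ubx and Abd-B, on 3R. On its Ubx side that table lists lncRNA:bxd and Glut3, among others. On its Abd-B side lie lncRNA:iab8, lncRNA:iab4 and the microRNA genes mir-iab-4 and mir-iab-8. The peaks below are on Release 5 positions and were not assigned to any of these genes or to a named element within the region. Whole embryos mix cells with active and silent abd-A, and the list does not say in which of these cells Pcl was bound.

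Pcl peaks of the abd-A region were 4 strong and 14 weak ones, told apart at a score of 200. This threshold, that of 500 and the region itself were chosen with earlier results of these data known. The score is the authors' deposited value from the peak caller, without a stated scale, and it is used only to rank, group and compare peaks within the list. The strong peaks scored 560 to 1178 and the weak ones 60.6 to 152. A minimum of 200 was met by 4 of 18 peaks (22.2%, 95% exact Clopper-Pearson interval 6.41 to 47.6), against 7.45% in the whole list and 7.75% on 3R outside the run of neighbouring peaks that holds the region. The same 4 peaks also met a minimum of 500, which 2.04% of all peaks and 1.9% of those on 3R outside that run met. These intervals cover counting error only and treat neighbouring peaks as independent, which they are not. In the whole list 255 peaks (10.4%) had scores between 152 and 560, the bounds that these abd-A peaks set.

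The highest-scoring peak of the region ran from 12672368 to 12673801 on 3R and scored 1178. It ranked 9 in the whole list and 3 on 3R, and 99.6% of all peaks scored lower. The peak was 1434 bp wide, only the fourth widest of the region. The second, at 12634977 to 12638214, scored 1077 and ranked 14 in the list. With 3238 bp it was the widest peak of the region, and it also ranked 14 in the list by width. The remaining strong peaks formed a pair. One lay at 12651533 to 12653931 with a score of 560, a width of 2399 bp and rank 45 in the list. Its partner lay at 12654676 to 12656620 with a score of 657, a width of 1945 bp and rank 37. Only 744 bp separated the edges of this pair.

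**Figure D1:**
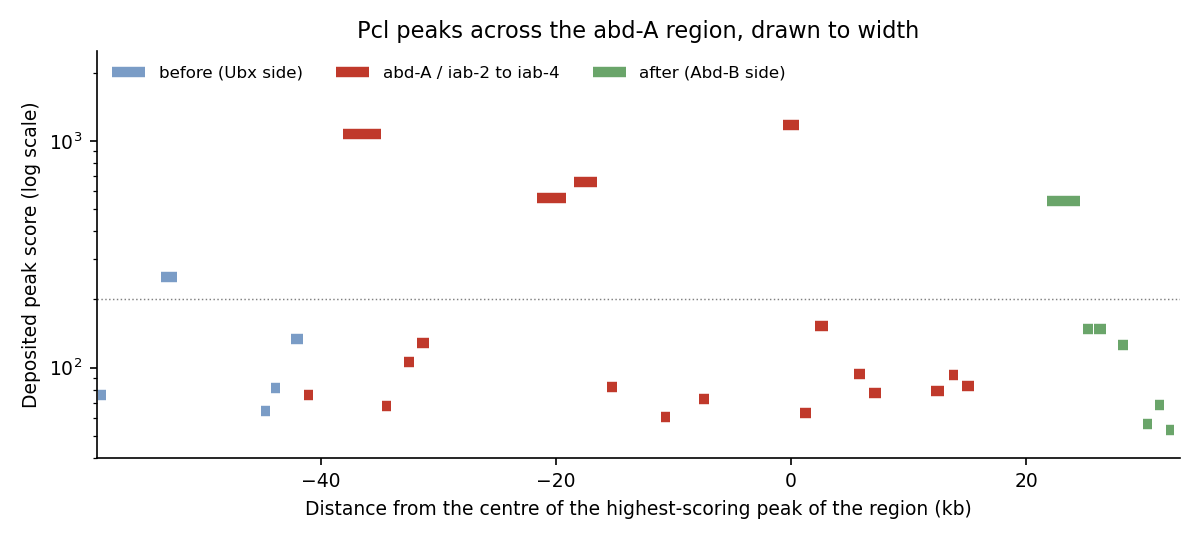
Deposited score (log scale) of each Pcl peak against distance in kb from the centre of the region's highest-scoring peak. Each horizontal line is 1 peak, drawn to its width; red peaks belong to the abd-A region, blue and green ones to the adjoining stretches, and the dotted line marks a score of 200. The 4 strong red peaks score 560 to 1178, and the other 14 lie between 60.6 and 152.

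Strong peaks, placed by their centres, were spread over the Ubx-proximal and middle parts of the region and were missing from its Abd-B-proximal end. The distances between their centres were 16.1 kb, 2.92 kb and 17.4 kb in map order. When the region was divided into 3 parts of 21 kb, the first held 6 peaks with 2 strong ones and the second held 5 peaks with 2 strong ones. The last part held 7 peaks, the largest number, and none of them was strong. These counts depend on where the borders fall. The first border ran between the centres of the strong pair, and the highest-scoring peak, centred at 12673084, lay close to the second. Peak coverage of the parts was 37.2%, 32.4% and 32.3% of their length. The nearest peaks outside the region that scored 200 or more lay 16.4 kb from the first strong peak on the Ubx side (12619508 to 12620850, score 252) and 23.2 kb from the last one on the Abd-B side (12694889 to 12697642, score 541).

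The 18 peaks lay in 5 groups when a gap of at least 3 kb was taken to end a group, a distance chosen after the positions were seen. The first group held 5 peaks from 12631697 to 12642338, led by the peak of score 1077. Its other members scored 75.9 at 12631697 to 12632471, 67.7 at 12638354 to 12639117, 106 at 12640202 to 12641032 and 129 at 12641297 to 12642338. The peak of score 67.7 began only 139 bp after the end of the strong one. On its outer side this group continued beyond the edge of the region, since its first peak followed the preceding one after 90 bp.

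After the first group came 9194 bp without a peak, from 12642338 to 12651533. This was the longest gap of the region and also of the run of 107 neighbouring peaks (gaps under 10 kb) that spans the complex from 12487002 to 12805868. Any gap of 10 kb or more would have ended the run, so its rank in the run depends on that limit. The second group, from 12651533 to 12658263, held the strong pair and a peak of score 82.5 at 12657442 to 12658263. Peaks covered 76.7% of its 6.73 kb.

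The third group was the weakest and had the lowest coverage (38.2%). It consisted of a peak at 12662060 to 12662785, whose score of 60.6 was the lowest of the region, and one at 12665294 to 12666119 with a score of 73.1. A gap of 2508 bp separated them, and 6248 bp without a peak followed, up to the highest-scoring peak.

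The fourth group began with that highest-scoring peak and extended to 12680740. Its next member, at 12673882 to 12674823, started after 80 bp, the shortest gap of the region, and scored 63.3. The peak after it, at 12675159 to 12676253, scored 152 and was the strongest of the weak peaks. Scores were 93.4 at 12678406 to 12679339 and 77.2 at 12679754 to 12680740. From the first to the second peak of this group the score thus dropped from 1178 to 63.3 within 1.27 kb of centre distance.

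The fifth group lay nearest to Mcp and was uniform in score. Its 3 peaks, at 12684979 to 12686085, 12686561 to 12687255 and 12687620 to 12688658, scored 78.6, 92.8 and 83.0. The middle one was the narrowest peak of the region, at 695 bp. A further 6230 bp without a peak followed. The next peak began at 12694889, just before the edge of the region, but its centre lay beyond that edge and it was not counted.

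**Figure D2:**
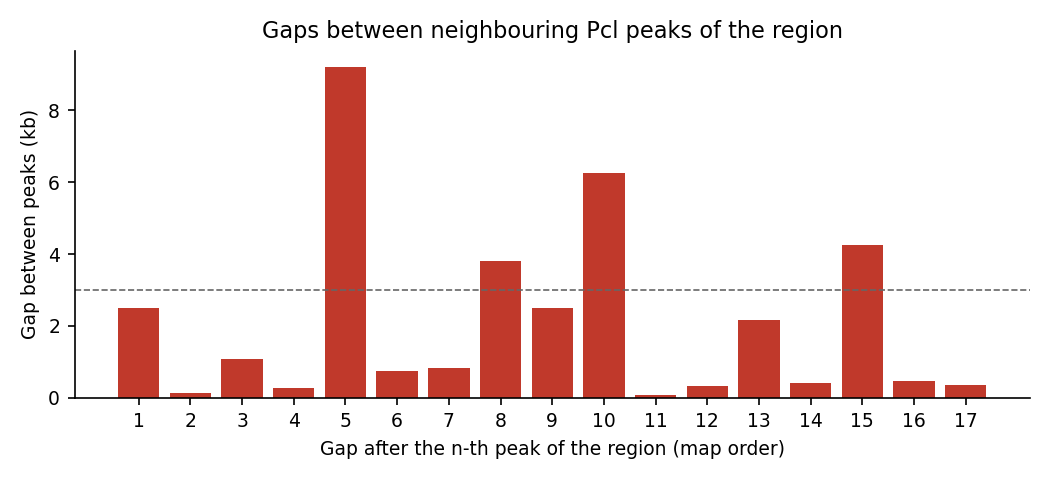
Length in kb of the 17 gaps between neighbouring Pcl peaks of the abd-A region, in map order from the Ubx side; the dashed line marks 3 kb. The 4 gaps above the line range from 3796 to 9194 bp and separate the 5 groups, while 9 gaps are shorter than 1 kb.

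Spacing within the region was thus uneven. The median gap was 821 bp, 7 of the 17 gaps were shorter than 500 bp and 9 were shorter than 1 kb. The 4 gaps of at least 3 kb together took up 23476 bp. Peaks covered 21409 bp, or 33.98% of the region, of which a small part belonged to the uncounted peak at the Mcp edge. The 4 strong peaks made up 41.7% of the 21601 bp in the 18 peaks.

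Weak peaks of the abd-A region were of ordinary strength for this list. Their median score was 80.5, against 73.6 for all peaks, whose quartiles were 59.5 and 105. Only 4 of the 18 peaks, all of them weak, fell below the median of the list. None scored below 60, a value close to the lower quartile of the list. The 7 peaks that exceeded the upper quartile included the 4 strong ones. The median of all 18 was 87.9 (95% exact binomial interval 75.9 to 152). Their median width was 964.5 bp (822 to 1107), against 830 bp in the whole list. Both intervals treat the 18 neighbouring peaks as independent draws, which they are not, and hold no replicate error. The weak peaks were 695 to 1107 bp wide, with no overlap with the 1434 to 3238 bp of the strong ones. Score and width rose together in the region (Spearman's rho = 0.73 over 18 peaks) as in the whole list (rho = 0.67 over 2457 peaks). Over the 14 weak peaks alone rho was 0.45, so the 4 strong and wide peaks carry part of the value for the region. These values are descriptions, since all peaks come from the same libraries.

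The highest-scoring peak of the region was narrow for its score. Each of the 20 arm peaks nearest to it in score, from 810 to 1561, was wider, at 1685 to 4459 bp with a median of 2922 bp. Its width was thus 0.49 times that median. Of the 14 peaks on the chromosome arms that scored 1000 or more, it was the narrowest, and the next had 1685 bp. Among the 47 arm peaks that scored 500 or more, whose median width was 2607 bp, it ranked 6 from the narrowest. The narrower ones included peaks on the adjoining Abd-B side, of 1264 bp (score 712), 1347 bp (score 620) and 1384 bp (score 793). Narrow peaks with scores above 500 were thus not particular to the abd-A region. By the same measure the peak of score 1077 was 1.19 times as wide as its 20 nearest in score. The strong pair had ratios of 0.95 and 0.82, in map order. The weak peaks ranged from 0.74 to 1.31, and 6 of these 14 were below 1. What sets the width of the highest-scoring peak was not tested.

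**Figure D3:**
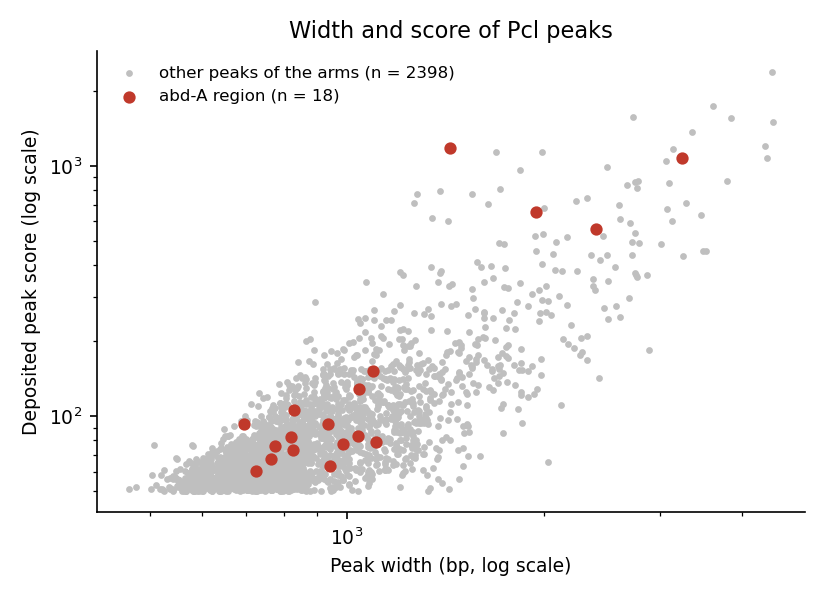
Deposited score against width in bp (both on log scales) for all Pcl peaks on the chromosome arms; red points are the 18 peaks of the abd-A region and grey points all others. The red point at 1434 bp and a score of 1178 lies to the left of the grey points of like score, which are at least 1685 bp wide among its 20 nearest.

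Within the run, the abd-A region lay near the Ubx side in peak density and median score, while its share of high scores lay nearer to one side or the other depending on the minimum. The abd-A region held 2.86 peaks per 10 kb. The adjoining 145 kb on the Ubx side held 2.97 per 10 kb (43 peaks), and the 111 kb on the Abd-B side held 4.15 (46 peaks). Coverage was 33.98% in the region, 29.998% on the Ubx side and 57.1% on the Abd-B side. The median score was 87.9 in the region, 82.7 on the Ubx side and 179 on the Abd-B side. Median width was 964.5 bp in the region, 810 bp on the Ubx side and 1088 bp on the Abd-B side. Median gaps were 821, 1107 and 586 bp in the same order. In width and gap the region thus lay between its neighbours. At a minimum of 200 the share was 22.2% in the region, 16.3% on the Ubx side (7 of 43 peaks, 95% exact interval 6.81 to 30.7) and 41.3% on the Abd-B side (19 of 46 peaks, 26.997 to 56.8), so that the region lay nearer to the Ubx side. At 500 it lay nearer to the Abd-B side. On the Ubx side 1 of 43 peaks scored 500 or more (2.33%, 95% exact interval 0.059 to 12.3). On the Abd-B side 10 of 46 peaks did so (21.7%, 10.9 to 36.4), beside the 4 of 18 in the abd-A region. At both minimums the interval of the abd-A region overlaps those of its neighbours, and no difference between them was tested.

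The interval from 152 to 560 was drawn from the abd-A peaks themselves, between the highest weak and the lowest strong one, so its emptiness there is given by construction. Scores within it were held by 11 of 43 peaks on the Ubx side and 19 of 46 on the Abd-B side, 33.7% of these 89 peaks together. These counts describe the neighbours only, and nothing was tested. Neighbouring peaks that scored 200 or more had a median centre distance of 16.1 kb in the abd-A region (3 distances). It was 8.47 kb on the Ubx side (7 peaks) and 4.06 kb on the Abd-B side (19 peaks). Per length, however, such peaks were sparser on the Ubx side, with 7 in 145 kb against 4 in the 63 kb of the region. Long stretches without such peaks on the Ubx side do not show in its median. The region made up 19.8% of the length of the run and held 16.8% of its peaks. It held 13.3% of the 30 peaks of the run that scored 200 or more, less than its share of the length. At a minimum of 500 the direction was reversed, since the region held 4 of the 15 such peaks of the run, more than its share of the length.

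**Figure D4:**
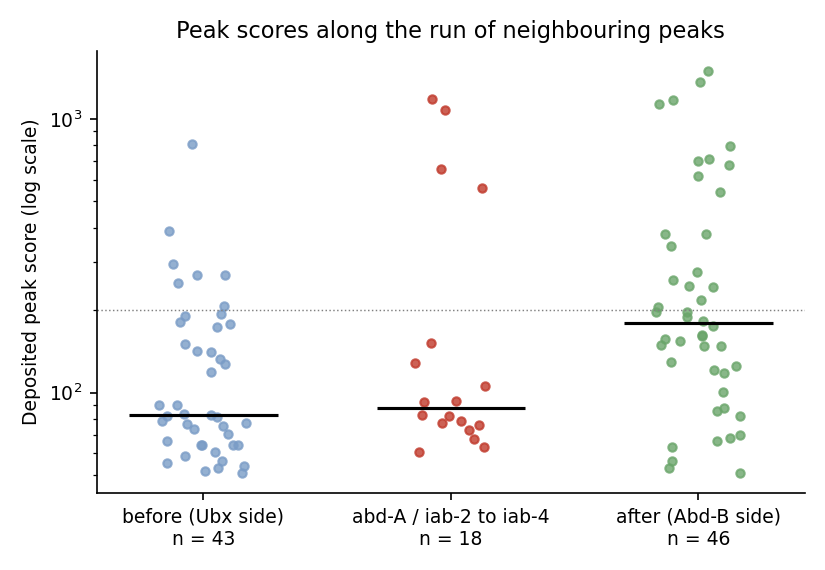
Deposited peak scores (log scale) in the 3 stretches of the run of 107 neighbouring peaks; each point is a peak, horizontal bars are medians, the dotted line marks a score of 200, and points are spread sideways only for legibility. The median of the abd-A region (87.9) is close to that of the Ubx side (82.7) and below that of the Abd-B side (179), and none of its points lies between 152 and 560, bounds set by these points.

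Beside the other parts of the genome, the abd-A region held many peaks. The arms 2L, 2R, 3L, 3R and X were divided end to end into windows of the same 63 kb. Of the 1828 other windows, 3 held as many peaks or more, and all 3 touched the same run. Among the 1823 windows that did not touch it, the median was 1 peak and the highest number was 17, and 804 windows had no peak. The highest coverage among these was 30.9%, against 33.98% in the abd-A region, while 3 windows that touched the run had as much or more. The 4 peaks that scored 500 or more in the region compare with at most 2 in any window outside the run, and 30 such windows held at least 1. On the Abd-B side, the adjoining window held 7 such peaks and the one after it 3. The windows were laid from the region's own edges, so their borders can cut clusters elsewhere. No other placement was tried.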

How the data were processed

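Pcl binding in embryos of 0 to 8 h was represented by one peak list of the combined ChIP replicates; the input sample was not analysed here. Per the submitters' processing notes, Bowtie and build BDGP5 were used. Per the file headers, peaks were called with MACS, with no version or settings stated there. The deposited score of each peak is the authors' value, with a lowest score of 50.01, so weaker peaks are missing. Positions are the deposited starts, converted to 1-based, and ends (other columns, in bp). Numbers, widths, gaps (bases between neighbouring peaks), coverage and ranks were computed with Python 3.11.15, pandas 2.3.3 and SciPy 1.17.1. Peak numbers, coverage, joining and the medians of score, width and gap were tested on simulated data. Ranks, width ratios and windows were not. No test over samples was possible, and sequencing depth is unknown.

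The region, its members and the thresholds (200 and 500 in score) were chosen with earlier results of these data known. Every peak of the region is given; peaks of at least 200, extremes and edge peaks are described in full. Gene names and their order came from a RefSeq table of Release 6; coordinates were not converted, so no peak was assigned to a gene or searched for motifs. Windows of 63 kb were laid in step with the region. Alternatives covered membership, edges, score minimum and joining of peaks.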

Additional observations from a re-analysis of the deposited data

How the results depend on the processing

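Of 57 recomputed values, 40 stayed close to the reported one: within 1.5 times for numbers, within the 95% exact interval for medians, or equal to 3 digits for coverage. Some of the 40 could not move. No peak of the region scored under 60, so a minimum of 60 left every value unchanged. Coverage was counted without regard to the membership rule. A minimum of 100, or keeping the 1228 peaks with the highest scores, cannot remove strong peaks. Membership by any overlap gave 19 peaks and by whole peaks 17. Coverage of 33.98% became 39.6% with edges 5 kb outward and 35.5% with edges 5 kb inward, and 28.8% in the 1228 peaks with the highest scores. A score minimum of 100 left 7 peaks, with coverage of 19.2%, a median score of 560 and a median width of 1434 bp. Joining gaps under 500 bp left 10 peaks with coverage of 37.3% and a median width of 2236 bp. The median gap then rose from 821 to 2508 bp. It still counted as close, because the interval is wide (364 to 2508 bp). Joining gaps under 1 kb left 8 peaks with coverage of 39.8%, a median width of 3007.5 bp and a median gap of 3796 bp. The shifts with a score minimum or with joining follow from fewer or longer peaks by construction. Those with moved edges follow in the same way from the bases that the edges take in or leave out. The number of strong peaks was between 3 and 5 under all 9 alternatives. The 5 groups became 9, 8 and 3 with gaps of 1, 2 and 5 kb, chosen after seeing the data. Single replicates could not be left out, and the planned share of motif-bearing promoters was not run. No paired analysis was possible because the replicates are merged in 1 list. Whether gaps hold weaker peaks, scoring under the lowest deposited value of 50.01, is not known from the list.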
